A study of Mus musculus with 6 samples.

Results

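Complexes II to V of the respiratory chain carry electrons from succinate and ubiquinol to oxygen and use the resulting proton gradient to make ATP. Complex II, succinate dehydrogenase, is encoded wholly in the nucleus. Complexes III, IV and V each combine subunits from the mitochondrial genome with nuclear-encoded ones. The nuclear subunits include the catalytic head of the ATP synthase as well as small accessory proteins. In striated muscle several complex IV subunits exist as a muscle isoform beside an isoform found in most tissues.

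The nuclear subunits of these 4 complexes were followed in RNA-seq read counts of tibialis anterior, which lies along the shin. Genes were taken from the 16289 rows of the count table when their Ensembl identifier led to a protein-coding symbol for a succinate dehydrogenase, complex III, complex IV or ATP synthase subunit. This gave 46 genes: 4 of complex II, 9 of complex III, 16 of complex IV and 17 of complex V. All 46 passed the filter on low counts. The rule works on symbols, so it leaves out subunits with other names (Ndufa4 of complex IV, Usmg5 of complex V). It also takes in Cox7a2l, a factor of supercomplex assembly, and Atp5s, coupling factor B, which are not core subunits. A further 2 rows with such symbols were processed pseudogenes and were not used.

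All mice were male C57BL/6J, 12 weeks old, and had received glycerol, which destroys muscle fibres and sets off regeneration, 14 days before the muscle was taken. One group of 3 was given the control treatment (glycerol) and the other group of 3 melatonin (glycerol+melatonin). The design compares injured muscle with and without melatonin. Total counts ran from 39310361 to 48879045 per library. All 9 fibre markers were measured, with summed levels of 134666, 149507 and 125775 CPM in glycerol and 138822, 116195 and 88626 CPM in glycerol+melatonin. CPM are counts scaled to a common library total with TMM factors. In such bulk tissue, fewer cells of a type and less RNA per cell cannot be told apart.

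The 46 genes did not differ singly beyond the spread between mice, but they leaned one way. In the quasi-likelihood test of edgeR, adjusted over all genes by the Benjamini-Hochberg method, 0 of 46 passed at an adjusted p under 0.05 (0.0738% of all 16259 genes tested did so, 0.0185% higher and 0.0554% lower), and adjusted p ran from 0.162 to 0.983. DESeq2 called 1 of the 46, which was higher, and 4.62% of all genes (2.04% higher and 2.58% lower). Limma-voom called 0 of the 46 without sample weights and 0 with them, where it called 1.22% of all genes (0.615% higher and 0.609% lower). Of the 46, 36 had a log2 fold change above 0 (51.7% of all genes did), and the median was 0.34 against 0.02 over all genes. At an unadjusted p under 0.05 there were 17 genes higher (10.1% of all genes) and 1 lower (9.39% of all genes). In 16 genes every glycerol+melatonin library lay above every glycerol library (13.6% of all genes), and in 2 every one lay below (12.5% of all genes). The 18 genes with an unadjusted p under 0.05 became 7 without glycerol replicate 1, 7 without glycerol replicate 2 and 21 without glycerol replicate 3. They became 14, 11 and 23 without glycerol+melatonin replicates 1, 2 and 3, so the count moved in both directions. The shares of all genes in these fits are not given here, and whether the shifts are particular to the 46 genes was not tested.

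**Figure D1:**
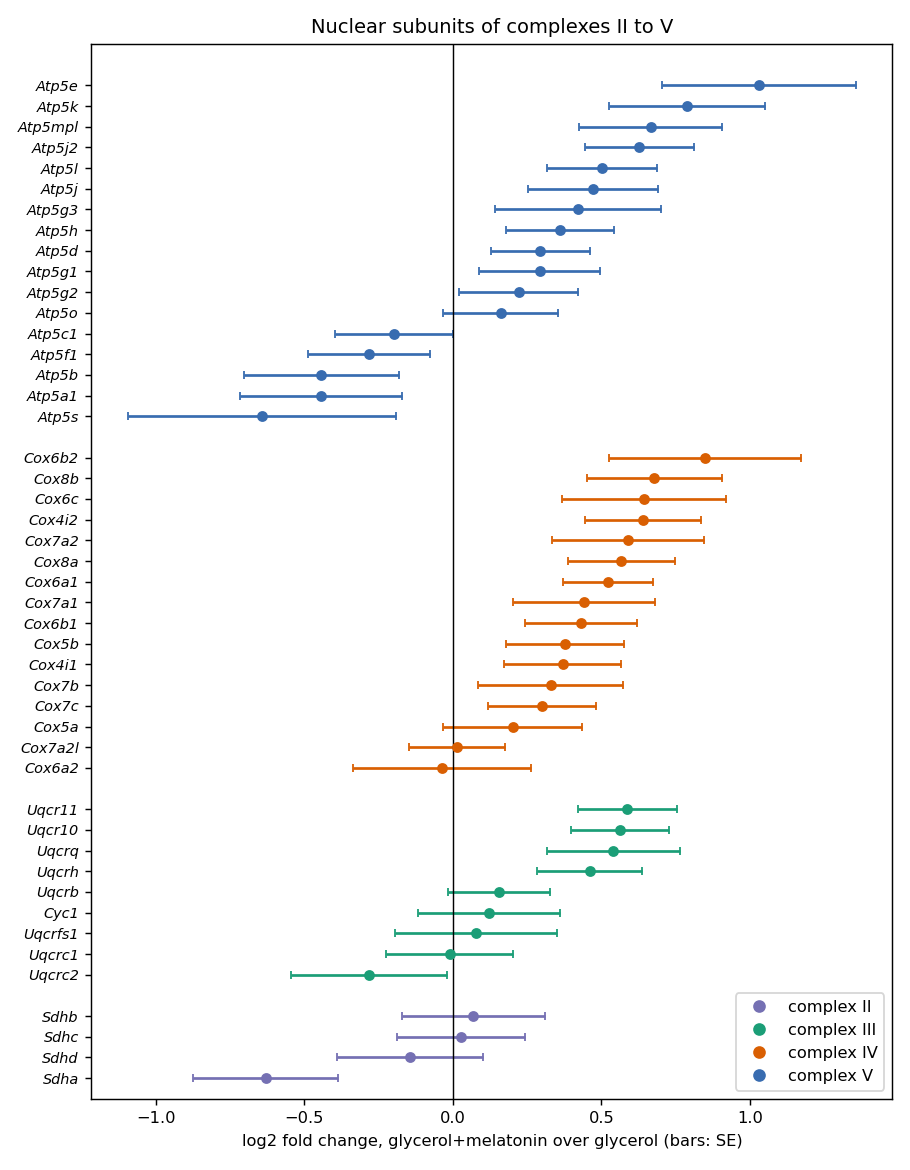
Fitted log2 fold change of each of the 46 genes (x axis, glycerol+melatonin over glycerol, bars are standard errors), grouped by complex. Complex IV lies right of 0 except for Cox6a2, with Cox7a2l nearest to 0 at 0.01, while Sdha, Uqcrc2, Atp5a1, Atp5b and Atp5s lie to the left.

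The complexes differed in their medians: -0.06 in complex II, 0.16 in complex III, 0.44 in complex IV and 0.29 in complex V. After correction of each library for transcript length these medians were -0.26, -0.018, 0.13 and 0.095, so that of complex III turned sign. Above 0, without that correction, were 2 of 4, 7 of 9, 15 of 16 and 12 of 17 genes. These are descriptions, since subunits of a complex are not replicates, and the difference between complexes was not tested. The levels per mouse varied as much within groups as between them. For all 46 genes the median deviation of log2 CPM from each gene's mean was -0.29, -0.21 and 0.05 for the glycerol mice, and 0.38, 0.16 and -0.08 for those given melatonin, so glycerol replicate 3 lay above glycerol+melatonin replicate 3. Glycerol+melatonin replicate 1 was the highest of all 6 libraries for 30 of the 46 genes, and replicate 3 of that group the lowest for 18. Summed over the 46 genes the level was 18123, 18909.5 and 20447 CPM in glycerol and 23994, 20231 and 15719.9 CPM in glycerol+melatonin, where the lowest and the highest library belong to the same group. Glycerol+melatonin replicate 3 also had the lowest fibre marker sum (88626 CPM) and the highest endothelial marker sum (1086 CPM over 5 of 5 markers, 659 to 940 CPM in the others). Of the endothelial markers, Pecam1, Cdh5 and Emcn were highest in that library. Kdr was higher in glycerol replicate 1 (67.0 against 62.1 CPM) and Tek in glycerol replicate 3 (40.7 against 38.9 CPM). Markers of fibro-adipogenic progenitors, 4 of 4 measured, summed to 577 to 941 CPM in glycerol and 428 to 476 CPM in glycerol+melatonin, without overlap. Most of that sum was Dcn (656 ± 161 and 374 ± 26.3 CPM), and Ly6a of the same list overlapped, at 0.09 ± 0.34. White fat markers (4 of 5 measured) summed to 15.7 to 101 CPM and 16.9 to 52.6 CPM, and macrophage markers (5 of 5) to 391 to 571 CPM and 333 to 527 CPM. Slow fibre markers (6 of 6) summed to 62.5 to 216 CPM and 206 to 231 CPM. Brown fat markers (2 of 4 measured) summed to 6.70 to 11.3 CPM and 5.96 to 6.06 CPM, without overlap. Each of these low genes overlapped by itself. Cidea was at 4.08, 1.61 and 4.73 CPM against 2.76, 2.14 and 2.43 CPM. Ppargc1b was at 7.19, 5.09 and 3.18 CPM against 3.27, 3.82 and 3.64 CPM. Cardiac markers (3 of 4) summed to 19.4 to 25.7 CPM and 25.4 to 37.4 CPM. The part of these cell types in the results was not tested.

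**Figure D2:**
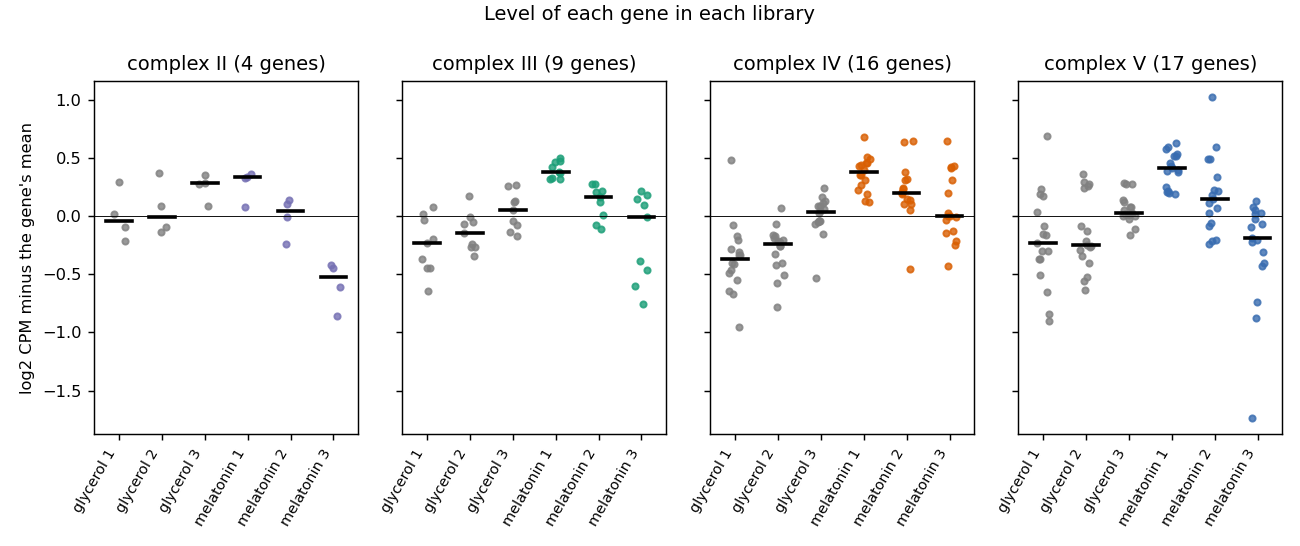
Deviation of log2 CPM from each gene's own mean (y axis) in the 6 libraries (x axis), 1 point per gene, bars at the median, 1 panel per complex. Glycerol libraries are grey. The medians of glycerol+melatonin replicate 1 are highest in all 4 panels, and complex II is lowest in glycerol+melatonin replicate 3.

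Complex II oxidises succinate to fumarate in the citric acid cycle and passes the electrons to ubiquinone. Its flavoprotein Sdha, which holds the catalytic site, was at 800.5, 843 and 833 CPM in the glycerol mice, against 689, 551 and 359.9 CPM in glycerol+melatonin. The groups did not overlap, and the lowest library was glycerol+melatonin replicate 3. The means were 826 ± 22.3 and 533 ± 165 CPM (SD, n = 3 per group), a log2 fold change of -0.63 ± 0.24 (SE; edgeR adjusted p = 0.218). The iron-sulfur subunit Sdhb was at 408, 429 and 572 CPM and at 605, 519.6 and 353 CPM. Its groups overlapped fully (0.07 ± 0.24, edgeR adjusted p = 0.902), and its sign turned with a correction for transcript length. The membrane anchors behaved likewise: Sdhc was at 0.03 ± 0.21, and Sdhd, at 215, 243 and 279 CPM against 289, 227 and 150.4 CPM, at -0.14 ± 0.25 (edgeR adjusted p = 0.779). With library size as the only scaling Sdhd was at 0.03, and then the median over all genes was itself at 0.23 in place of 0.02. Sdhb was at 0.24 with that scaling. In the fit that gave the standard errors printed here, no gene of complex II was above 0.07. Its median ran from -0.26 to 0.15 when single libraries were left out, the lower value without glycerol+melatonin replicate 1 and the higher without its replicate 3.

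Complex III passes electrons from ubiquinol to cytochrome c. Of its 9 genes, 4 did not overlap between groups, all of them small accessory subunits and all higher with melatonin. Over all genes, 13.6% were without overlap and higher, and 12.5% without overlap and lower. Uqcr11, the smallest protein of the complex by coding length (168 bases), was at 153, 173 and 185 CPM in the glycerol mice, against 293, 232 and 241 CPM with melatonin. All 3 glycerol+melatonin libraries lay above all 3 glycerol libraries, with means of 170.1 ± 16.2 and 256 ± 32.5 CPM (log2 0.59 ± 0.17, edgeR adjusted p = 0.162). Uqcr10, next to it in the membrane part, was at 195, 221 and 242 CPM and at 356, 321 and 294 CPM (0.56 ± 0.17, edgeR adjusted p = 0.167). Its groups did not overlap either. Uqcrq, which binds ubiquinone, had the highest level per kilobase of the complex (1018 CPM per kilobase of transcript) and was at 256, 315 and 437 CPM against 550.2, 463 and 452 CPM (0.54 ± 0.22, edgeR adjusted p = 0.239). The acidic hinge protein Uqcrh completed the 4 without overlap (0.46 ± 0.18).

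The other 5 genes of complex III overlapped between groups. The core proteins Uqcrc1 and Uqcrc2, related to mitochondrial processing peptidases, were at -0.01 ± 0.21 and -0.28 ± 0.26 (edgeR adjusted p = 0.983 and 0.569). Uqcrc2 was at 514, 549 and 585 CPM in the glycerol mice, against 606, 461 and 288 CPM with melatonin, so its groups overlapped, and the lowest and highest library were both of the glycerol+melatonin group. The electron carriers, cytochrome c1 (Cyc1, 0.12 ± 0.24) and the Rieske iron-sulfur protein (Uqcrfs1, 0.08 ± 0.27), also overlapped. Uqcrb, a small accessory subunit, was at 0.16 ± 0.17. None of the 9 passed (edgeR adjusted p 0.162 to 0.983), and the median of the complex ran from 0.01 to 0.34 when single libraries were left out (0.34 without glycerol+melatonin replicate 3, 0.01 without its replicate 1).

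Complex IV, cytochrome c oxidase, reduces oxygen to water, and its nuclear subunits surround and regulate its mitochondrially encoded catalytic core. Of its 16 genes, 7 were higher in every glycerol+melatonin library than in any glycerol library, and 0 were lower in every one (13.6% and 12.5% of all genes). In all 3 muscle pairs the muscle isoform was the more abundant per kilobase. Cox6a2 made up 93.6 ± 2.49% of the Cox6a pair in glycerol and 91.3 ± 1.45% in glycerol+melatonin. Cox8b made up 85.7 ± 1.73% and 86.2 ± 3.49% of its pair with Cox8a, and Cox7a1 made up 74.3 ± 1.97% and 71.7 ± 3.45% of its pair with Cox7a2 (SD, n = 3 per group).

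The ratio of muscle to ubiquitous isoform did not differ beyond the spread between mice in any pair. The log2 ratio of Cox6a2 to Cox6a1 was 4.37, 4.16 and 3.30 for the glycerol mice, against 3.53, 3.11 and 3.57 with melatonin. Glycerol replicates 1 and 2 were high and the other libraries overlapped, with a difference of -0.53 (exact permutation p = 0.3, two-sided, adjusted p = 0.5 over 5 pairs). For Cox7a1 over Cox7a2 the difference was -0.18 (exact permutation p = 0.3, adjusted p = 0.5). For Cox8b over Cox8a it was 0.09 (exact permutation p = 0.9, adjusted p = 0.9), and its sign turned without glycerol replicate 1 and without glycerol+melatonin replicate 1. With 3 mice per group this test cannot give a p below 0.1.

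**Figure D3:**
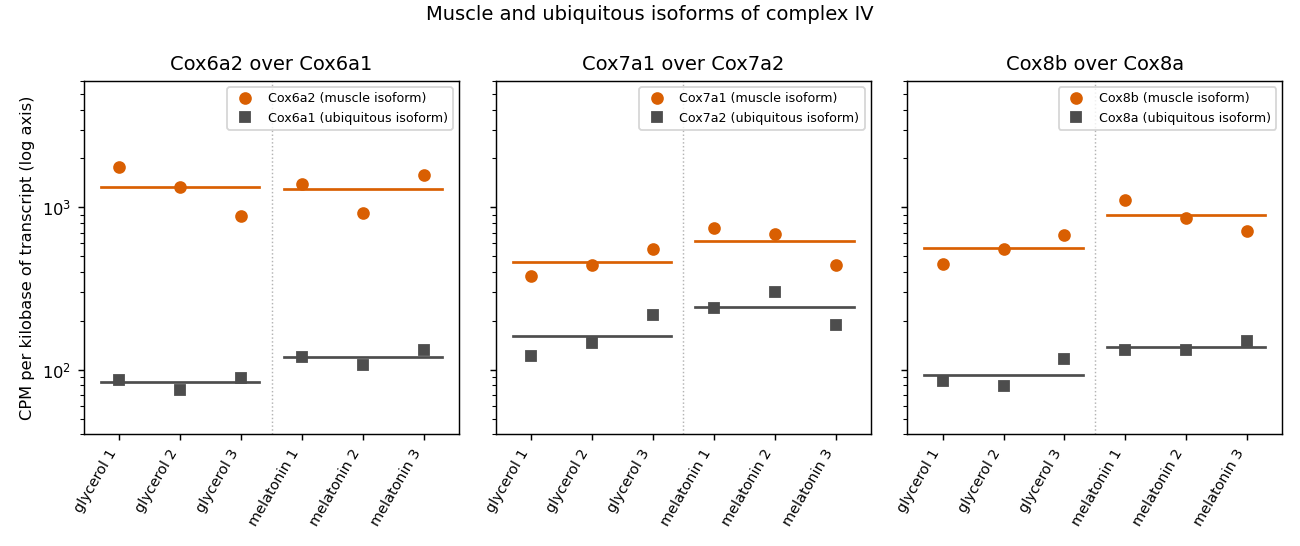
CPM per kilobase of principal transcript (y axis, log scale) of the 3 muscle isoforms (circles) and their ubiquitous partners (squares) in the 6 libraries, with lines at the group means. The muscle isoform lies above its partner in every library, and Cox6a2 has no order by group.

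Single isoforms differed in how they varied. Cox6a2 was at 1211, 905 and 598 CPM in the glycerol mice, against 945, 629 and 1072 CPM with melatonin. It was highest in glycerol replicate 1, where 20 of the 46 genes were at their lowest, and lowest in glycerol replicate 3. Its log2 fold change was -0.04 ± 0.30 (edgeR adjusted p = 0.959), the only one of complex IV below 0, and its sign turned with library size alone, with upper quartile factors and without glycerol replicate 1 or glycerol+melatonin replicate 2. Its ubiquitous partner Cox6a1 was at 49.2, 42.6 and 51.0 CPM and at 68.5, 61.0 and 75.6 CPM. There the groups did not overlap (47.6 ± 4.42 and 68.4 ± 7.29 CPM, 1.44-fold, log2 0.52 ± 0.15, edgeR adjusted p = 0.164).

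Cox8b, on mouse chromosome 7 (140898945 to 140900446 on GRCm38, minus strand), was at 161, 199.8 and 244 CPM in the glycerol mice, against 402, 311 and 256 CPM with melatonin. The groups did not overlap, though glycerol replicate 3 and glycerol+melatonin replicate 3 were close (0.68 ± 0.23, edgeR adjusted p = 0.187). Its ubiquitous partner Cox8a, on chromosome 19 (7215153 to 7217616, minus strand), was at 46.6, 43.6 and 63.8 CPM and at 72.3, 72.9 and 82.9 CPM, again without overlap (0.57 ± 0.18, edgeR adjusted p = 0.180). Both isoforms thus stood higher in glycerol+melatonin by similar amounts. Cox7a1 (149, 173 and 219 against 293, 269 and 174 CPM, 0.44 ± 0.24, edgeR adjusted p = 0.339) and Cox7a2 (79.95, 96.6 and 142 against 158, 198 and 125 CPM, 0.59 ± 0.26, edgeR adjusted p = 0.253) each overlapped because of glycerol+melatonin replicate 3.

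The isoforms of other tissues were scarce. Cox4i2, an isoform known from lung, made up 1.17 ± 0.171% of its pair with Cox4i1 in glycerol and 1.45 ± 0.391% in glycerol+melatonin (SD, n = 3 per group). It was at 5.29, 4.47 and 6.34 CPM in the glycerol mice, against 8.50, 7.62 and 8.98 CPM in glycerol+melatonin, without overlap (0.64 ± 0.20, edgeR adjusted p = 0.173). The summed level of 7 of 7 pericyte and smooth muscle markers was 1010 to 1055 CPM in glycerol and 888 to 1066 CPM in glycerol+melatonin, so the groups overlapped in it. Most of that sum was Rgs5 (622 ± 28.0 and 618 ± 56.8 CPM). Abcc9 of the same list was lower with melatonin without overlap (-0.56 ± 0.19, edgeR adjusted p = 0.191), while the others overlapped. Cox6b2, the testis isoform of complex IV, was at 0.593, 0.484 and 0.808 CPM against 1.14, 0.960 and 1.298 CPM (0.85 ± 0.32, edgeR adjusted p = 0.213), from 21 to 61 counts a library. The ubiquitous isoforms were at 0.37 ± 0.20 (Cox4i1: 423, 467 and 506 against 709, 621 and 474 CPM) and 0.43 ± 0.19 (Cox6b1: 264, 279 and 325 against 468, 369 and 333 CPM). Against its partner the log2 ratio differed by 0.30 for Cox4i2 (exact permutation p = 0.6, adjusted p = 0.75) and by 0.43 for Cox6b2 (exact permutation p = 0.2, adjusted p = 0.5). Of the 46 genes, 4 were highest in glycerol+melatonin replicate 3, and these were Cox4i2, Cox6a1, Cox6b2 and Cox8a.

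The subunits of complex IV without a second isoform here were at 0.20 (Cox5a) to 0.64 (Cox6c), and the supercomplex factor Cox7a2l was at 0.01 ± 0.16. Cox6c was the one of them without overlap, at 116, 194 and 243 CPM in the glycerol mice, against 256, 349.7 and 257 CPM in glycerol+melatonin. Glycerol replicate 1 was low, and 250 exon bases of Cox6c overlap Vps13b on the other strand. The gap between the groups was small against the range within them.

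Complex V, the ATP synthase, consists of a catalytic head, a rotating stalk and ring, and a fixed stalk in the membrane. The catalytic beta subunit Atp5b had the highest level per kilobase of the 46 genes (1356 CPM per kilobase). It was at 2845, 3089 and 3048 CPM in the glycerol mice, against 2903, 2185 and 1517 CPM with melatonin. Only glycerol+melatonin replicate 1 overlapped the glycerol mice (-0.44 ± 0.26, edgeR adjusted p = 0.375). Its partner in the head, the alpha subunit Atp5a1, was at 1798, 1840.5 and 1855 CPM and at 1755, 1445 and 837 CPM, without overlap (-0.44 ± 0.27, edgeR adjusted p = 0.393). In both, the glycerol mice lay close together, and the spread was in the glycerol+melatonin group.

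The epsilon subunit Atp5e, the smallest of the 46 by coding length (156 bases), was at 128, 154 and 242 CPM in the glycerol mice, against 361, 486 and 224 CPM with melatonin. Glycerol+melatonin replicate 3 lay among the glycerol mice, so the groups overlapped. The means were 175 ± 59.8 and 357 ± 131 CPM, a 2.04-fold difference and the largest of the 46 (log2 1.03 ± 0.33, edgeR adjusted p = 0.180). Atp5e was also the 1 gene that DESeq2 called (1.02 ± 0.32, adjusted p = 0.0350). Its stalk neighbours were at -0.20 ± 0.20 (gamma subunit, Atp5c1) and 0.29 ± 0.17 (delta subunit, Atp5d).

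The small membrane subunits had the next highest values. Atp5j2, subunit f, was at 203, 239.9 and 257 CPM in the glycerol mice, against 414, 365 and 304 CPM with melatonin, without overlap (0.63 ± 0.18, edgeR adjusted p = 0.164). Subunits e (Atp5k, 0.79 ± 0.26) and g (Atp5l, 0.50 ± 0.19), which hold the synthase dimers together, did not overlap between groups either, though for Atp5k the highest glycerol and the lowest glycerol+melatonin library both rounded to 163 CPM. The proteolipid Atp5mpl was at 0.67 ± 0.24 with overlap. The 3 genes of the c ring, Atp5g1, Atp5g2 and Atp5g3, which encode the same mature protein, were at 0.29 ± 0.20, 0.22 ± 0.20 and 0.42 ± 0.28, all with overlap. Atp5g1 was the most abundant of them per kilobase (954 CPM per kilobase, against 901 for Atp5g3 and 479.7 for Atp5g2), at 501, 482 and 550.5 CPM in the glycerol mice, against 746, 652 and 479.5 CPM in glycerol+melatonin. In the fixed stalk, coupling factor 6 (Atp5j) was at 0.47 ± 0.22, subunit d (Atp5h) at 0.36 ± 0.18, OSCP (Atp5o) at 0.16 ± 0.19 and the longest, subunit b (Atp5f1), at -0.28 ± 0.21. Atp5s, the lowest value of complex V at -0.64 ± 0.45, was at 13.4, 10.7 and 10.1 CPM in the glycerol mice, against 11.4, 7.97 and 2.49 CPM in glycerol+melatonin, and its size rested on the last library (-0.23 without it).

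Across the 46 genes the fold change ran with the size of the protein. Spearman's rho between coding length and log2 fold change was -0.79 over 46 genes, -0.93 over the 17 of complex V and -0.97 over the 9 of complex III, but -0.23 over the 16 of complex IV. These are correlations across genes that share the same 6 libraries, given as descriptions. Of 18 genes with a coding length under 300 bases, 17 were above 0, with a median of 0.58. Of 16 genes from 300 to under 600 bases, 15 were above 0 (median 0.33), and of 12 genes from 600 bases on, 4 were (median -0.24).

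The same order was present in the whole library. Among all protein-coding genes tested, 81.4% of 312 genes under 300 coding bases were above 0 (median 0.35), 68.7% of 1553 genes from 300 to under 600 (median 0.20) and 46.0% of 12088 longer genes (median -0.04). After correction of each library for transcript length, the 3 size classes of the 46 genes had medians of 0.29, 0.09 and -0.33. The median over all 46 was then 0.09, with 29 above 0. Over all genes in that fit the median was 0.03, with 52.5% above 0. The count with an unadjusted p under 0.05 was then 5 in place of 18. With the length of the principal transcript, an alternative chosen after seeing the data, 26 of the 46 were above 0 (52.7% of all genes were). In that fit 2 of the 46 had an unadjusted p under 0.05. The shares of all genes with such a p in these corrected fits are not given here. Per mouse, the shortest class was at -0.49, -0.27 and 0.02 for the glycerol mice, against 0.47, 0.25 and 0.08 with melatonin. The longest class was at 0.06, 0.21 and 0.26 and at 0.32, -0.07 and -0.53. The shortest class was thus separated by group with a narrow gap between the replicates numbered 3, and the longest was not. After the length correction, Spearman's rho between coding length and log2 fold change was -0.72 over the 46 genes. That correction used the longest transcript of each gene, which for some short members is far from the principal one. For Atp5l it was 6310 against 544 bases, and its value went from 0.50 to 0.66. This rho therefore cannot tell whether the order by size outlasts a correction for length, and none was computed with the principal transcript. Whether size as such or the role of the subunits goes with the values was not tested.

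**Figure D4:**
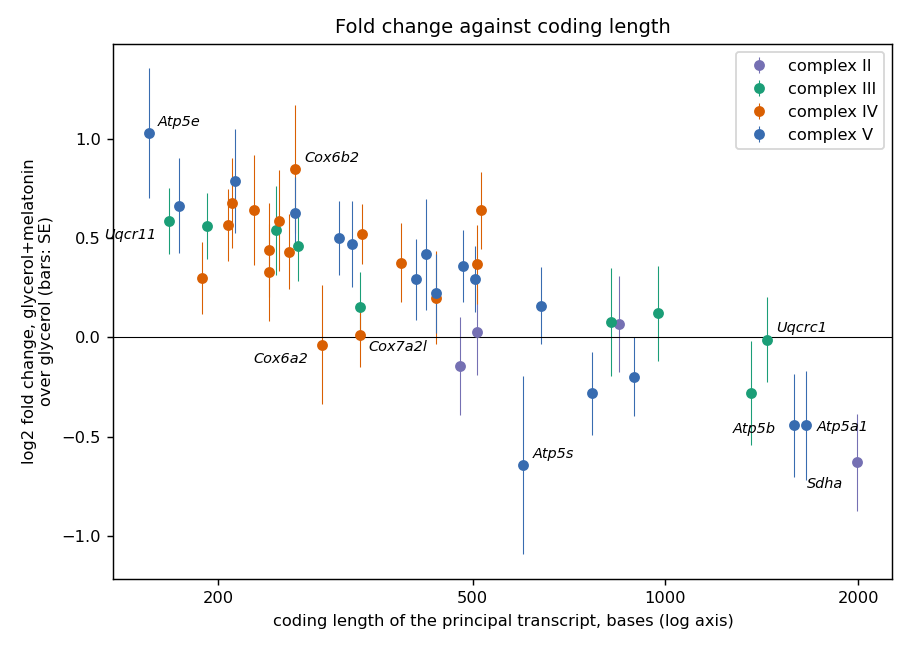
Log2 fold change (y axis, glycerol+melatonin over glycerol, bars are standard errors) against coding length of the principal transcript (x axis, log scale) for the 46 genes, coloured by complex. Atp5e is at 1.03 with 156 bases and Sdha at -0.63 with 1992 bases, and Atp5s lies lowest at -0.64.

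Upstream sequences were searched because genes of these complexes are known to be controlled together by nuclear factors such as NRF1 and GABP. RefSeq promoter windows on GRCm38.p6 matched 33 of the 46 genes by symbol, and the 250 bases before each start site were read on both strands. The palindromic NRF1 motif was present in 3 of 33 genes (Atp5g2, Atp5k and Cox6a1) and in 0.877% of all 27025 genes with a window. The GABP motif CCGGAAGT was present in Atp5h, Uqcr11 and Uqcrh, 3 of 33, and in 3.23% of all genes. The ERR motif TCAAGGTCA was in Atp5g3 (0.422% of all genes), the YY1 motif AAGATGGCG in Atp5j (0.710%) and the E-box CAGCTG in Atp5b and Cox8b (14.7%), while the MEF2 motif was in 0 of 33 (3.42%). No motif overlapped another in the windows printed here. They belong to Uqcr11 and Cox6a1, the genes with the smallest unadjusted p of complexes III and IV, and to the muscle and ubiquitous isoforms Cox8b and Cox8a. Motif matches are in capitals, and each is a match of letters, not a measured site.
Uqcr11 (chr10:80406822-80407071, minus strand): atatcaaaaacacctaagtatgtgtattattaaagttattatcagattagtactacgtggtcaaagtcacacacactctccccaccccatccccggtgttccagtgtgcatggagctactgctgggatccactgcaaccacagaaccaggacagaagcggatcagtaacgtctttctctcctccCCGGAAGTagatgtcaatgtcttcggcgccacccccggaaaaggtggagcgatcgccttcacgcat
Cox6a1 (chr5:115348959-115349208, minus strand): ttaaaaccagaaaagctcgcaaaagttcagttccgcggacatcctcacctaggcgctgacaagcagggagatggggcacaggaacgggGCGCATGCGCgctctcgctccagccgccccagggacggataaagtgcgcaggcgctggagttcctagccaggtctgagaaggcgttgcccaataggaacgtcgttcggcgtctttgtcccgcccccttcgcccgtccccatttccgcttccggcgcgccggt
Cox8b (chr7:140900447-140900696, minus strand): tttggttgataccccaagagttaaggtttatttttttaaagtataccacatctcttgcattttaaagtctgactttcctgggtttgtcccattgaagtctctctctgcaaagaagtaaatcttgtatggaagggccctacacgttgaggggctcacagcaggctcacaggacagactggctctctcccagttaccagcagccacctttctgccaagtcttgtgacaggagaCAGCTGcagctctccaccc
Cox8a (chr19:7217617-7217866, minus strand): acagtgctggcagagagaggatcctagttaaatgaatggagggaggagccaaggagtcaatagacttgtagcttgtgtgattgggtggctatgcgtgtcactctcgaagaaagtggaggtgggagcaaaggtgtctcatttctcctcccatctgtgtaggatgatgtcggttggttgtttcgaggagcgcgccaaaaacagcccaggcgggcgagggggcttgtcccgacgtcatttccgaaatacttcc

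The factors that assemble these complexes did not lean the same way. Of 37 assembly factors, 0 passed by edgeR in either direction, 17 were above 0 and 20 below, and the median was -0.02. At an unadjusted p under 0.05, 7 were higher and 6 lower (10.1% and 9.39% of all genes). The one with the smallest p was Taco1, which promotes translation of the mitochondrially encoded Cox1 protein. It was at 27.7, 30.2 and 26.4 CPM in the glycerol mice, against 12.7, 10.6 and 5.47 CPM in glycerol+melatonin, with a wide gap between the groups (28.1 ± 1.93 and 9.60 ± 3.72 CPM, log2 -1.55 ± 0.29, edgeR adjusted p = 0.113). DESeq2 (adjusted p = 4.9e-05) and limma-voom with sample weights (adjusted p = 0.0349) called it.

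Uqcc3, which acts in the assembly of cytochrome b into complex III, was at 23.4, 23.7 and 28.1 CPM in the glycerol mice, against 45.5, 39.2 and 40.4 CPM in glycerol+melatonin, without overlap (0.73 ± 0.15, edgeR adjusted p = 0.122). DESeq2 (adjusted p = 0.00798) and limma-voom with sample weights (adjusted p = 0.0456) called it. Cox15, of the synthesis of heme a for complex IV, was at 53.7 ± 8.83 and 32.7 ± 7.02 CPM (-0.72 ± 0.20, edgeR adjusted p = 0.157, DESeq2 adjusted p = 0.0429). Cox17, a copper chaperone of complex IV, was at 22.5 ± 1.46 and 35.3 ± 6.67 CPM (0.65 ± 0.17, edgeR adjusted p = 0.147, DESeq2 adjusted p = 0.0478). Both had no overlap between groups, in opposite directions. Cytochrome c itself (Cycs), the carrier between complexes III and IV, was at 467 ± 21.7 and 444 ± 95.6 CPM (-0.07 ± 0.20).

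**Figure D5:**
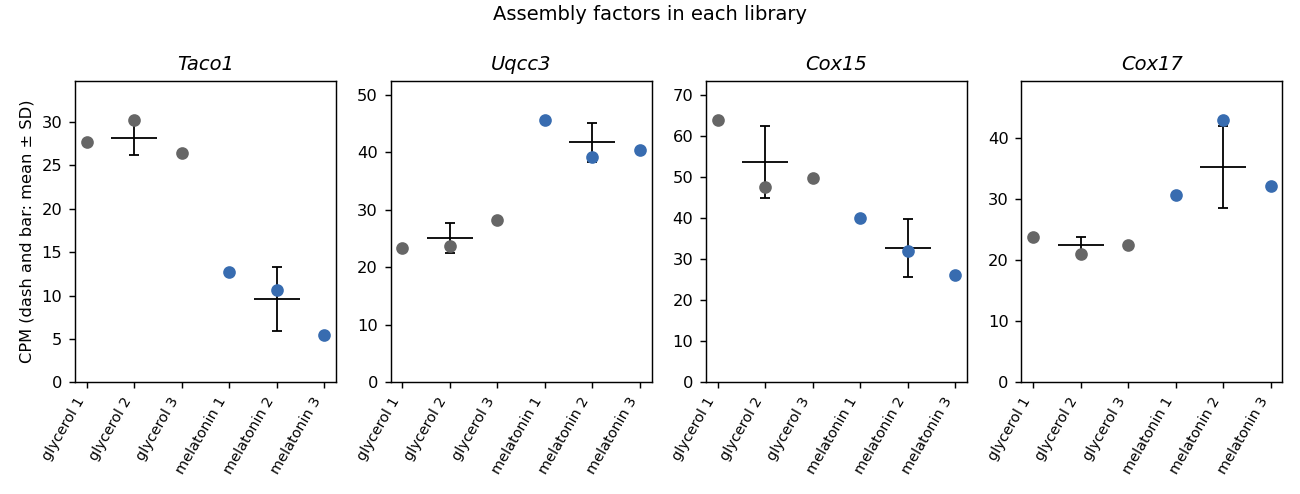
CPM (y axis, from 0) of the 4 assembly factors with the smallest p in the 6 libraries (x axis), with dashes at group means and bars for the SD. Taco1 and Cox15 are lower and Uqcc3 and Cox17 higher in every glycerol+melatonin library than in any glycerol library.

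Of 6 mitochondrially encoded partners listed for the same complexes, 4 were among the genes tested. All 4 were below 0 (51.7% of all genes were above 0), and none passed by edgeR. The core subunit mt-Co1 was at 103070, 83871 and 51879 CPM in the glycerol mice, against 58879, 39350.5 and 54456.5 CPM in glycerol+melatonin (-0.65 ± 0.37, edgeR adjusted p = 0.365). The membrane subunit of the synthase, mt-Atp6, was at 21958, 17546 and 2505 CPM and at 3020.0, 1816 and 3026 CPM (-2.42 ± 0.68, edgeR adjusted p = 0.159). For both genes glycerol replicates 1 and 2 were high and glycerol replicate 3 lay among the other group. In those same high libraries the 46 nuclear genes had their lowest medians (-0.29 and -0.21). Among the other libraries there was no such order. The mitochondrial sums were 77727 CPM in glycerol replicate 3 and 89133, 60677 and 86465 CPM in glycerol+melatonin replicates 1, 2 and 3. The nuclear medians there were 0.05, 0.38, 0.16 and -0.08. Whether the levels go together was not tested. Nuclear complex I subunits, the nearest other set, had 33 of 38 above 0 and a median of 0.35.

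Some values are uncertain by overlap or by copies. Exon bases are shared with a gene on the other strand by Uqcrc2 (504 with Pdzd9), Atp5j (397 with Gabpa), Atp5o (356 with Gm15976) and Atp5f1 (337 with Wdr77). Further such overlaps are those of Cox5a (269), Cox6c (250 with Vps13b), Cox4i1 (154), Atp5l (133), Atp5a1 (129), Cox6a2 (70), Atp5d (68) and Uqcrb (50). For Cox6c this compares with a principal transcript of 503 bases. Reads of such partners cannot be told apart without the strand. Processed copies with at least 95% identity over 200 aligned bases were most numerous for Atp5l, with 8. The copies of Atp5g2 that were counted held reads equal to 8.35% of its own, those of Atp5l 2.86%, and those of any other member under 0.5%.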

How the data were processed

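RNA-seq libraries of 6 mice, 3 per group, were analysed. The values are raw counts of reads, which the authors deposited with 1 row per gene. The submitters' processing notes list, for build mm10, FastQC 0.11.2 and Trimmomatic 0.36, with the aligner HISAT2 2.0; bedtools 2.26.0 and StringTie 1.3.3b also appear there, as does DESeq2 1.12.4. Which tool counted, with which annotation and whether by strand, is not given in those notes. Tibialis anterior is the labelled tissue, but the labels' extraction protocol names longissimus dorsi. A chi-square per degree of freedom of 65.9 to 181 between mice of a group showed no repeated library. The series calls the samples biological replicates.

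Symbols, positions and lengths came from GENCODE M21 (GRCm38, the assembly of mm10), with 16260 of 16289 identifiers matched. The principal transcript was the APPRIS principal form with the best support, the shortest where tied, and levels per kilobase rest on it. Counts of all 6 libraries, filtered with filterByExpr and scaled with TMM factors, were tested in R 4.3.3 with edgeR 4.0.16 (quasi-likelihood). A standard error is the log2 fold change divided by the square root of F. Isoform ratios used counts plus 0.5 and an exact permutation test. The length correction was a spline with 4 degrees of freedom per library on the longest transcript, as an offset. Alternatives included DESeq2 1.42.0 and limma 3.58.1. Scripts were tested on simulated data.

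The genes, lists and rules were chosen with earlier results of these data known. Values are given for isoform pairs, for the 2 smallest p and the extremes of each complex, for the 4 highest levels per kilobase and for the 4 assembly factors with the smallest p; other genes are named for their role.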

Additional observations from a re-analysis of the deposited data

How the results depend on the processing

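None of the 46 genes passed in edgeR or limma under any alternative run or with any library left out. DESeq2 called 1. Over all genes, where edgeR called 12, the count was 752 in DESeq2, 199 in limma-voom with sample weights, 7 with the length or the principal transcript length correction, 9 with length and GC content, 59 at an adjusted p under 0.1, 0 under 0.01, and 6 (without glycerol replicate 1) to 27 (without glycerol replicate 3) with single libraries left out. With library size alone the medians of complex III and of the assembly factors were 0.35 and 0.18, Cox6a2 was at 0.20 and Sdhd at 0.033, and with upper quartile factors Cox6a2 was at 0.0042.

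Correction for transcript length gave medians of 0.088 for the 46 genes, -0.018 for complex III and 0.13 for complex IV, with Sdhb at -0.15. Length with GC content gave 0.12, -0.058 and 0.15, with Sdhb at -0.15. The length of the principal transcript, an alternative chosen after seeing the data, gave 0.086, -0.017, 0.12 and, for complex V, 0.037, with Sdhb at -0.14 and Atp5g1 at -0.025. With single libraries left out, complex III ran from 0.015 to 0.34, Cox6a2 from -0.26 to 0.23, Sdhb from -0.11 to 0.26, Sdhd from -0.38 to 0.077 and the log2 ratio difference of Cox8b over Cox8a from -0.12 to 0.31. The cause of these differences was not tested.

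With the replicate number as a block, 0 genes were called in all, and 12 of the 46 had an unadjusted p under 0.05 in place of 18. The share of all genes with such a p in that fit is not given here. Mice with the same number did not deviate together (correlations -0.01, -0.01 and -0.05), so the numbers were not taken as pairs. These comparisons rest on 3 mice per group, and whether the spread between mice or the depth limits them was not tested.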
